A study of Macaca fascicularis with 8 samples.

Results

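The chromatin of the liver was compared with that of other organs in 2 cynomolgus monkeys (Macaca fascicularis), using 2 liver libraries of 8 in the series. The animals were healthy adults of 4 years, 1 female and 1 male, recorded as normal and without any treatment or genetic change. Accessible chromatin was profiled in single cells (scATAC-seq) after the tissues had been minced, digested with enzymes, filtered and treated to lyse red blood cells. The female animal gave liver replicate 1, here called the female liver, with colon, heart, lung and uterus. The male animal gave liver replicate 2, the male liver, with kidney and spleen. Each organ of each animal is 1 library, so animal, sex, organ and library cannot be told apart outside the liver, and no value below is a difference between the sexes. A barcode was taken as a cell from 1000 counts in peaks upwards, which left 728 of 2110 barcodes in the female liver and all 11935 in the male liver, out of 78917 cells in the 8 libraries.

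The liver clears and rebuilds what the gut delivers with the portal blood, and it makes bile and most plasma proteins. Hepatocytes, the parenchymal cells, do most of this work and are known for a chromatin landscape shaped by hepatocyte nuclear factors. They share the organ with bile duct cells, sinusoidal endothelium, stellate cells, Kupffer cells and many lymphocytes, whose chromatin resembles that of the same lineages in other organs. In scATAC-seq the Tn5 transposase cuts accessible DNA, so that counts in a region follow how open it is and how many cells are open there. Fewer cells of a type and less open chromatin per cell cannot be told apart in the sum over a library.

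Regions were made by merging the peaks of all libraries wherever they overlapped by at least 1 bp. Of 295418 merged regions, 19964 had a peak in all 8 libraries, and 17902 of these had a mean of at least 10 CPM (counts per 1000000 counts in the shared regions) and were tested. For each animal, the log2 ratio of the liver over the mean of the other organs was computed after adding 1 CPM, and a region was called high or low when the liver differed at least 2-fold (a log2 ratio of 1 or more, or of -1 or less). The 2 ratios share no library. With 1 library per group a call is a size and carries no p-value. A gene annotation of the genome build of these peaks was not used here, so regions are given by their positions, no gene was assigned to them, and the liver label was not checked against hepatocyte or other marker genes.

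The female liver stood apart in depth. Its cells held 1978404 counts, against 92100566 in the male liver and between 40995276 and 110748462 in the other organs, and its median cell had 2040.5 counts against 6818 in the male liver. Only 1147068 counts fell in the shared regions, so that 1 count is worth about 0.872 CPM, and a region had a median of 48 counts. The share of counts on the X chromosome was between 1.48% and 2.02% in the female libraries and between 1.53% and 1.91% in the male ones, and so did not separate the animals. Barcode sequences shared with another library were about as frequent for the livers as for other pairs, with 30 shared by both livers and 1.19 to 1.64 shared per 1000000 possible pairs over all libraries.

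In the male animal, 1624 regions (9.07% of those tested) were at least 2-fold higher in liver than in kidney and spleen, and 2437 (13.6%) were at least 2-fold lower. In the female animal, 880 regions (4.92%) were higher in liver than in the other organs and 2597 (14.5%) were lower. Scaled to the counts in all peaks of a library, 15552 regions passed the filter. The male contrast then had 1026 higher and 2636 lower regions and the female one 376 and 2830. The medians of the log2 ratios over the regions tested moved from -0.15 to -0.37 in the male contrast and from -0.02 to -0.27 in the female one. Both contrasts called 223 regions high (1.25%) and 786 low (4.39%). Scaled to all peaks, they called 96 high (0.617%) and 858 low (5.52%) of the 15552. Of the regions high in the male liver, 13.7% were also high in the female liver, where 4.92% of all regions were, and of those low in the male liver 32.3% were also low in the female liver, where 14.5% of all regions were. The contrast of heart, where 8.57% of all regions were high, shared 272 (16.7%) of the regions high in the male liver. These were 17.7% of its own high regions, against 25.3% for the female liver. In 222 regions the female liver was high and the male liver low, which is 9.11% of the regions low in the male liver. In 267 the reverse held, 16.4% of those high in the male liver, near the 14.5% of all regions that were low in the female liver. Across the 17902 regions the 2 contrasts correlated weakly (Pearson r = 0.16, Spearman rho = 0.10, across regions of the same libraries, which are not independent). That value depended on the companion organs: without kidney it was -0.029, with 3394 regions high in the male liver, and without spleen 0.31. Without colon it was 0.095, with 1414 regions high in the female liver. At 4-fold, 14 regions were high and 154 low in both contrasts. The smaller of the 2 log2 ratios was 1.002, 1.007 and 1.008 for the regions just inside the limit and 0.9939, 0.9972 and 0.9977 for those just outside.

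Regions with both livers on the same side of all 6 other organs were counted without any ratio. In 668 regions (3.73%) both livers lay above every other organ, and in 1190 (6.65%) below every other organ. This held for 148 of the 223 regions high in both contrasts (66.4%) and for 364 of the 786 low in both (46.3%), although the ratios that chose those regions use the same levels. How often other pairs of libraries lay above or below all the rest was not counted. The shares of 3.73% and 6.65% are therefore not shown to exceed what any pair of libraries would give. The edgeR quasi-likelihood test asks whether both livers differ from the other organs beyond the spread between organs, with the animal as a term and the 6 other organs, 1 library each, standing for that spread. It called 0 regions (0%) at an adjusted p of 0.05 (Benjamini-Hochberg), with 579 higher and 821 lower at an unadjusted p under 0.05 and a smallest adjusted p of 0.402. DESeq2 on the same libraries called 162 higher (0.907%) and 236 lower (1.32%) of 17855 regions with an adjusted p.

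The region with the largest liver excess in both animals was chr7:157122727-157145954, a stretch of 23228 bp. It reached 1254 CPM in the male liver, 46.9 in spleen and 21.7 in kidney. In the female animal it had 210 CPM in liver (exact Poisson interval 174 to 251, from 241 counts), 43.0 in lung, 21.02 in colon, 7.995 in uterus and 2.96 in heart. Both livers lay above all 6 other organs, by 35.5-fold in the male contrast and 10.7-fold in the female one. Without lung the female log2 ratio moved from 3.42 to 4.18, and without spleen the male one from 5.15 to 5.79. In edgeR's quasi-likelihood test its adjusted p was 0.516.

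The most abundant of the 12 named high regions was chr2:107421660-107505277, which spans 83618 bp. The male liver had 2528 CPM there, kidney 143 and spleen 68.4. The female liver had 386 CPM (337 to 441, from 443 counts), heart 91.3, colon 80.2, lung 53.1 and uterus 44.4. The livers were again the highest libraries, 23.7-fold and 5.67-fold over the other organs of their animals. Without kidney the male log2 ratio moved from 4.57 to 5.19.

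A pair of named regions lay next to each other on chromosome 14, chr14:1701292-1715711 and chr14:1744146-1754302. The former had 270 CPM in the male liver and 70.6 in the female liver (50.6 to 96.0), and at most 20.1 in the other organs. The latter had 333 CPM in the male liver and 78.5 in the female liver (57.2 to 105), and at most 19.1 elsewhere. In the latter, the smallest adjusted p of edgeR's quasi-likelihood test over all regions was found, 0.402.

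Chromosome 13 held 4 of the 12. At chr13:37907673-37910429 the male liver had 70.7 CPM, the female liver 22.7 (12.1 to 38.8) and the other organs between 0.11 and 6.26. At chr13:80763780-80768813 the male liver had 105 CPM, the female liver 25.3 (14.0 to 42.0) and the other organs between 1.08 and 10.1. The 2 others were chr13:5808763-5823449 and chr13:64291539-64301882, with 205 and 111 CPM in the male liver and 74.97 and 24.4 in the female liver. In all 4, both livers were above every other organ. The filter on the mean CPM counts the livers too. Over the other organs alone, the mean lay below that limit at all but chr13:5808763-5823449, so the livers brought those regions into the test.

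Kidney was the exception in 3 regions. At chr10:753228-769653 it had 111 CPM, above the 61.9 of the female liver and below the 277 of the male liver. At chr16:1675890-1692260 kidney had 110 CPM, the female liver 31.4 and the male liver 278. At chr11:102163206-102213890 the values were 59.8, 33.1 and 650. Without spleen the log2 ratios of the male contrast moved from 2.28 to 1.31, from 2.15 to 1.33 and from 4.25 to 3.42 in these 3 regions, and without kidney to 7.02, 4.31 and 6.43. In the remaining region, chr12:117253139-117259255, the livers had 126 and 33.1 CPM and kidney, the next organ, 15.4. This region, too, passed the filter on the mean CPM only with the livers counted. Over the 12 regions the male liver was the highest library in 12, and both livers lay above all other organs in 9. The ratios that ranked these regions use the same levels.

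**Figure D1:**
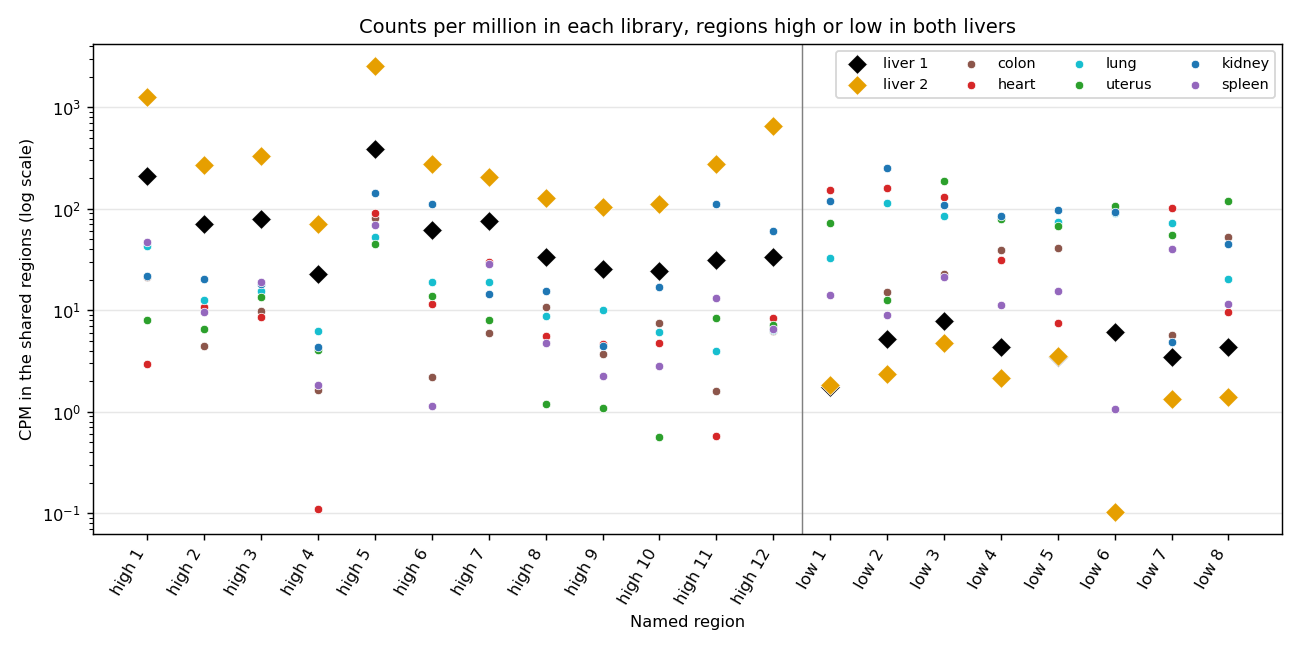
CPM (log scale) of each library in the 12 regions named as high and the 8 named as low in both livers, in the order of their ranking. Diamonds are the liver libraries (liver 1 female, liver 2 male) and circles the other organs, 1 library each, with no error drawn. The liver diamonds lie above all circles in 9 of the 12 high regions and below all circles in 7 of the 8 low ones. The female liver values of the low regions rest on 2 to 9 counts, and most of their intervals reach another organ.

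The regions high in both livers were wide. Their median width was 4343 bp against 2271 bp for all regions tested, and 45 of the 223 (20.2%) were over 10 kb, against 2.64% of all. The low ones were not, with a median of 2297.5 bp. The liver peaks were the long ones, since the called peaks in these regions had a median total length of 3761 bp in the male liver and 2743 bp in the female liver, and between 430 bp in uterus and 1286 bp in kidney. The counts cover each library's own peaks alone, so a region called as a long peak in liver and a short one in heart is counted over different lengths. At chr7:157122727-157145954 the male liver was counted over 23228 bp, the female liver over 16557 bp and heart over 210 bp. Per kilobase of its own peaks, that region had 54.0 CPM in the male liver, 12.7 in the female liver and 21.9 in uterus.

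In the 12 named regions, the male liver peak was longer than that of every other organ in 12 and the female liver peak in 11. With counts per base of the library's own peaks, 6 of 19957 regions tested were high in both contrasts and 198 low, and the correlation was 0.02. Of the 12 named regions, 6 kept a 2-fold excess in the male contrast and 0 in the female contrast. In the 6331 regions whose peak lengths differed by at most 2-fold over the 8 libraries, 2 were high and 68 low in both contrasts. How much of the liver excess the peak lengths account for was not tested, since a longer peak is itself called from more counts.

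In the named regions low in both livers, both livers had a low CPM. At chr14:102665178-102672141 the male liver had 1.82 CPM, kidney 118 and spleen 14.3. The female liver had 1.74 CPM (0.0441 to 9.71, from 2 counts), heart 152, uterus 72.7, lung 32.4 and colon 1.84. At chr3:85533896-85545266 the livers had 2.36 and 5.23 CPM and the other organs between 9.012 in spleen and 251 in kidney. Kidney, heart and lung exceeded 100 CPM there. At chr19:52005177-52009471 the livers had 4.73 and 7.85 CPM and the other organs between 21.3 in spleen and 187 in uterus.

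In the remaining low regions both livers again had a lower measured CPM than every other organ, with 1 exception. At chr3:47156535-47163240 spleen, with 1.07 CPM, and heart, with 5.62, lay below the 6.10 of the female liver, whereas the male liver had 0.103 and colon, kidney, lung and uterus had between 89.7 and 106. At chr16:45936273-45939543, chr1:209007939-209011435, chr16:48706381-48709830 and chr3:90587198-90590406 the female liver had between 3.49 and 4.36 CPM and the male liver between 1.34 and 3.58. Over the 8 regions, the livers were 10.02-fold to 43.5-fold below the organs of the male animal and 9.59-fold to 24.0-fold below those of the female animal. Peak lengths differed here too. At chr3:47156535-47163240 the male liver was counted over 47 bp and kidney over 4588 bp. Over the 786 low regions the median length was 579.5 bp in the male liver and 850 bp in the female liver. The other organs had between 913 bp in spleen and 1511.5 bp in lung. With counts per base, 1 of the 8 regions lost its 2-fold size in the male contrast and 2 in the female contrast. The female liver values rest on 2 to 9 counts each. The upper ends of their exact Poisson intervals were between 9.71 and 19.1 CPM. Only at chr19:52005177-52009471 did the interval stay below every other organ. Elsewhere the order of the female liver and the lowest other organs is not resolved. The size of the male contrast rested on single organs. Without kidney, the log2 ratio moved from -5.44 to -0.91 at chr3:47156535-47163240, which was then no longer called, from -5.28 to -1.58 at chr3:85533896-85545266, and to between -2.44 and -1.86 at 5 others. Without spleen it moved from -3.32 to -1.31 at chr16:48706381-48709830. In the female contrast, leaving out heart moved chr14:102665178-102672141 to -3.74 and chr3:85533896-85545266 to -2.94, and leaving out uterus moved chr3:90587198-90590406 to -2.42.

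Some regions went in opposite directions in the 2 livers. At chr10:25914903-25919969 the male liver had 73.3 CPM, kidney 3.55 and spleen 4.66, whereas the female liver had 4.36 (0.725 to 14.0) and its companions between 9.71 in heart and 48.3 in lung. At chr18:59097895-59100592 the male liver had 37.7 CPM and the female liver 5.23, with 0.0877 in kidney and 60.2 in heart. Kidney was counted over 6 bp there, the male liver over 1629 bp and heart over 2589 bp. Per kilobase of its own peaks, kidney had 14.6 CPM and the male liver 23.2. At chr5:135968050-135969753 the livers had 64.2 and 3.49 CPM. At chr8:37573488-37574130 the male liver had 20.8 CPM and the female liver 0 counts, for which the exact Poisson interval reaches 6.43 CPM. In 3 of these 4 regions the called peak was longer in the male liver than in all other organs.

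Whole libraries also placed the female liver next to organs other than liver. The contrast of the female liver correlated with that of spleen against kidney and the male liver (r = 0.18, 309 regions high in both, 14.4% of the 2153 high in spleen) about as much as with that of the male liver (r = 0.16, 223 regions, 13.7% of 1624), and negatively with that of kidney (r = -0.34). Other pairs of organs from the 2 animals had higher values than the 2 livers, with 0.34 for colon with spleen (349 regions high in both, 16.2% of those of spleen) and 0.30 for uterus with kidney (352, 19.5% of the 1809 of kidney). Of all regions 3.96% were high in colon, 6.17% in uterus and 4.92% in the female liver. These correlations are descriptions across regions, and the 3 male contrasts share their libraries. The levels of the female liver correlated most with spleen and colon (r = 0.83 for both, on log2 CPM) and less with the male liver (0.69), while the male liver correlated most with kidney (0.75).

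Single cells divided the livers. For each cell, the share of its shared-region counts that fell in the 1624 regions high in the male liver was computed. The ratio that chose these regions uses no count of the female liver, which entered only through the requirement of a peak in all 8 libraries and a mean of at least 10 CPM. Its cells had a median share of 4.79%, above the median of colon (3.72%) and below those of uterus (5.68%), heart (6.32%) and lung (6.38%), but 182 of its 728 cells (25%, exact binomial interval 21.9% to 28.3%) lay above 8.03%, the highest 95th percentile among the other organs of that animal. The distribution had a second, separate mode between about 11% and 20%, as the plot of shares by cell shows. In the male liver, where the regions were chosen, the median was 18.5%.

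**Figure D2:**
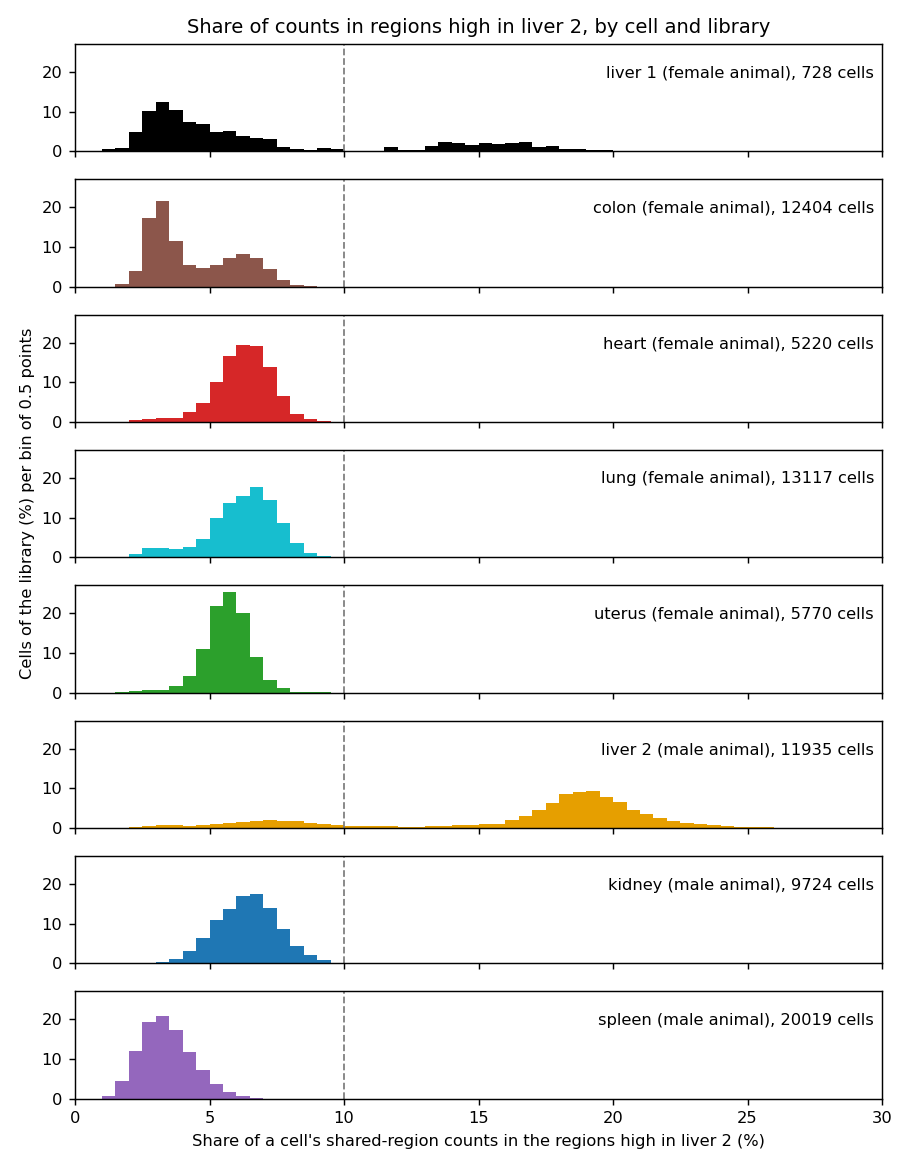
Percentage of cells (bars, bins of 0.5 points) by the share of their counts in the 1624 regions high in the male liver, 1 panel per library with the number of cells; the dashed line is a share of 10%. The female liver has 166 of 728 cells to the right of the line and the male liver 9784 of 11935, whereas the 6 other organs have between 0 and 8 cells there.

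A limit of 10%, set after seeing this distribution, divided both livers. In the female liver 166 cells (22.8%, 19.8% to 26.0%) were above it, and in the male liver 9784 (82.0%, 81.3% to 82.7%). Of the other organs, kidney had 8 of 9724 cells above it (0.0823%), lung 6 of 13117, heart and uterus 2 each, and colon and spleen 0, which at a limit of 3 cells allows a share of up to 0.0242% in colon and 0.0150% in spleen. Within 2 points of the limit lay 26 cells of the female and 817 of the male liver. In the male liver the bin with the fewest cells between the modes was 12% to 12.5%, with 45 cells. The bin from 9.5% to 10% held 96, so the limit lies on the side of the lower mode there. When the share was computed from the odd-numbered chromosomes and from the even-numbered ones with X, 98.1% of the female and 97.2% of the male liver cells fell in the same class by both. The class is a range of a score and was not named as a cell type, and no marker list was checked here. The intervals cover counting error, and the livers are 1 library each, so that the proportions 22.8% and 82.0% do not describe the animals. Depth moved with the class in opposite directions: the median total was 1755.5 counts above and 2184.5 below the limit in the female liver, and 8163.5 above and 2907 below in the male liver. When cells were thinned to 500 counts in the shared regions, 24.6% of the female liver cells lay above the other organs, whose limit was then 8.8%. With a minimum of 2000 counts per cell it was 17.6%. In the regions high in the female liver, 58.2% of the male liver cells lay above kidney and spleen, and 39.3% after thinning. The division at 10% was not repeated at equal depth.

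Liver cells at or below 10% had more of their counts in regions high in spleen. The 2153 regions high in spleen against kidney and the male liver held 14.1% of the counts of the median female liver cell below the limit and 3.92% above it. The corresponding values in the male liver were 11.1% and 3.56%, although that liver took part in choosing these regions. In both livers the cells were divided by regions high in the male liver over kidney and spleen, so the direction was partly set by that choice. The median spleen cell had 15.4% and the median colon cell 13.1%. The 1809 regions high in kidney held a median of 5.77% above and 2.84% below in the female liver and 5.27% and 4.56% in the male liver, which took part in choosing them, against 13.1% in kidney itself.

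To keep the assignment of cells apart from the counts compared, liver cells were assigned by the odd-numbered chromosomes and their counts taken from the others, and the reverse. The female liver cells above 10% (170 and 162 cells by the 2 assignments, 195188 counts) were then set against the same 4 female organs. The correlation with the contrast of the whole male liver was 0.53, against 0.16 for the whole female liver, and 0.36 in the regions with peak lengths within 2-fold. These cells were chosen by their share in regions high in the male liver, though on other chromosomes. A closer match to the male contrast, in the correlation and in the calls below, was therefore partly set by that choice. In these cells 2158 regions (12.1%) were high and 5301 (29.6%) low. Of the 1624 regions high in the male liver, 874 (53.8%) were high in these cells too, and of the 2437 low ones 1868 (76.7%) were low. Opposite calls numbered 31 and 132. With so few counts 2635 regions (14.7%) had no count in these cells and were called low by the added 1 CPM. With 5 CPM added the correlation was 0.57, and 746 regions were high and 1403 low in both.

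**Figure D3:**
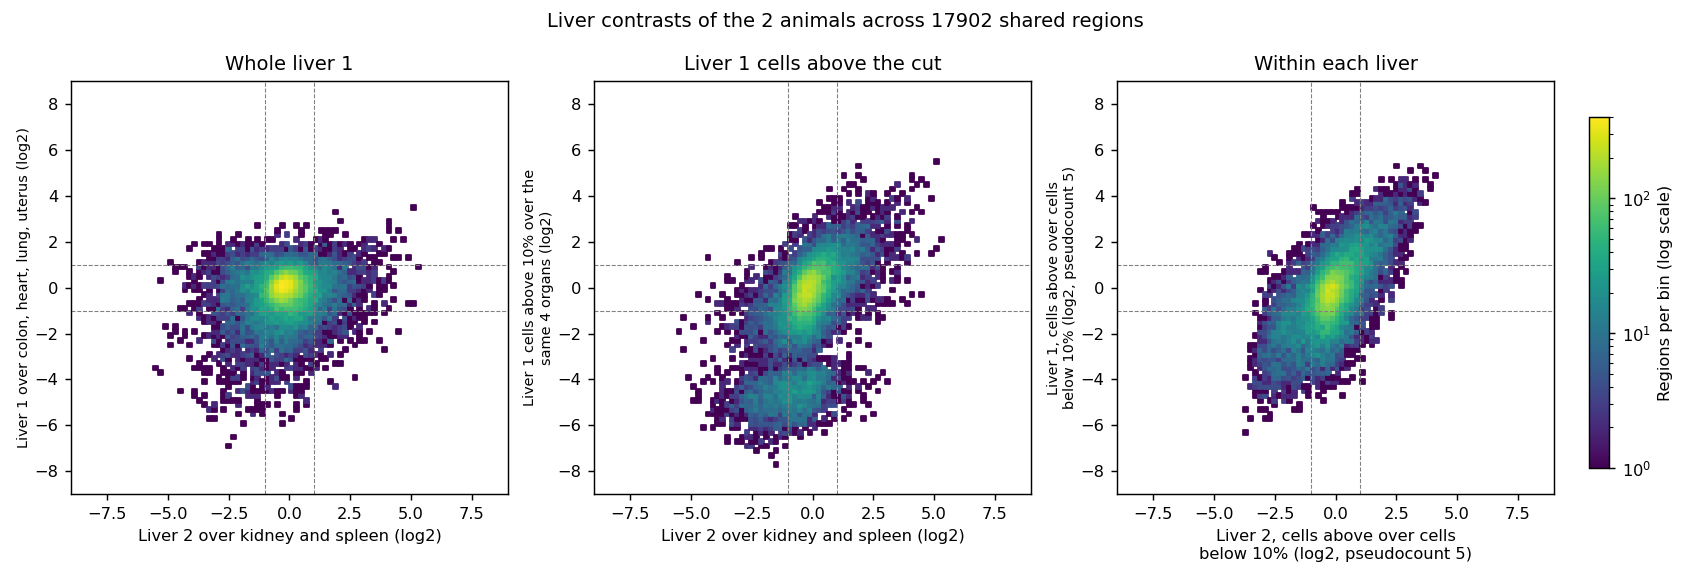
Log2 ratios across the 17902 regions in bins of 0.2, coloured by the number of regions (log scale), with dashed lines at 2-fold. Cells above 10% were chosen on other chromosomes by their share in regions high in the male liver. Left, the whole female liver against the male liver contrast (r = 0.16); centre, the female liver cells above 10% (r = 0.53), where the lower band holds the regions without a count; right, cells above against cells below 10% within each liver (r = 0.67).

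The female liver cells at or below 10% differed from this. Their contrast correlated at -0.06 with that of the male liver, with 89 regions high in both (5.48% of those high in the male liver, where 5.42% of all regions were high in these cells), and at 0.41 with that of spleen, with 445 high in both (20.7% of those high in spleen). The cells above 10% correlated at -0.40 with the spleen contrast, with 23 regions high in both (1.07% of those high in spleen). The male liver is part of the spleen contrast, and the regions of the score were chosen as high in it over kidney and spleen. The values of both classes against spleen and the male liver were therefore partly set by that choice. When the class above 10% was taken in both livers, the correlation was 0.57. Then 950 regions were high in both (53.9% of the 1762 of the male liver) and 2315 low (75.8% of 3056). Of all regions, 12.1% were high and 29.6% low in the female cells above. When the class below was taken in both, the correlation was 0.23, with 148 high (11.2% of the 1326 of the male liver) and 817 low (52.0% of 1571). Of all 17902 regions, 5.42% were high and 3318 were low in the female cells below.

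A comparison within each liver divides by no other organ, and both classes are counted over the same peaks. The score that made the classes was still chosen against kidney and spleen. Cells above and below 10% were divided by each other in each animal, on the held-out chromosomes and with 5 CPM added. The female liver had 3015 regions (16.8%) higher and 4582 (25.6%) lower in the cells above, and the male liver 1908 higher and 2456 lower. Both livers shared 1397 of the higher regions, 73.2% of those of the male liver, and 1711 of the lower ones, 69.7%. Opposite calls were rare, with 48 and 68 regions. The correlation was 0.67, and 0.72 in the 11346 regions with a mean of at least 30 CPM. The split used the same 1624 regions in both animals, so that the livers were divided along the same score, on other chromosomes.

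Of the 12 named high regions, 11 were at least 2-fold higher in the cells above 10% in the female liver and 10 in the male liver. The medians of the log2 ratio were 3.26 and 2.48. Of all 17902 regions, 16.8% were so in the female liver and 1908 in the male liver. Both the 12 regions and those of the score were chosen as high in the male liver, so the male count was largely set by that choice. The 12 regions were also chosen as high in the female liver, so the female count was partly set as well. At chr7:157122727-157145954, 35.9% of the female liver cells above 10% and 5.91% of those below had a count, and in the male liver 80.6% and 13.50%. At chr2:107421660-107505277 the shares were 53.1% and 9.89% in the female liver and 92.2% and 20.8% in the male liver. At chr11:102163206-102213890 they were 10.6% and 0.358% in the female liver and 63.0% and 5.25% in the male liver. Depth differed between the livers and between the classes, as given above, and these shares are not corrected for it.

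The region chr14:1701292-1715711 divided the cells less in the male liver. Its CPM was 278 above and 197 below 10% in the male liver, and 184 and 47.3 in the female liver. At chr13:5808763-5823449 the values were 214 and 125 in the male liver and 92.2 and 71.4 in the female liver. In these regions both classes of the male liver exceeded kidney and spleen. The log2 ratio of the cells above over those below in the 8 low regions was between -1.53 and 1.64 in the female liver and between -2.24 and 0.24 in the male liver. In these regions the male liver cells above 10% had at most 2.96 CPM and those below at most 27.8. The latter was at chr19:52005177-52009471, above the 22.7 of colon and the 21.3 of spleen. The female liver cells below had between 2.10 and 9.45 CPM. In the female cells above, where 1 count is 5.12 CPM, 6 of the regions had no count, which is too few to show a low level. The other 2 had more than the cells below, with 10.2 CPM at chr3:85533896-85545266 and 20.5 at chr3:47156535-47163240. Of the 4 regions with opposite calls, 3 had a higher CPM in the cells above than in those below in both livers. At chr10:25914903-25919969, chr5:135968050-135969753 and chr18:59097895-59100592 the log2 ratio of the cells above over those below was 2.07, 1.102 and 1.84 in the female liver and 2.35, 1.48 and 0.31 in the male liver, and the fourth had no female count. With the female cells above in place of the whole liver, the ratio to the female organs was -0.66, -1.18 and -0.52 in these 3, so that the low call ended in the first and the last. The whole female liver had 5, 4 and 6 counts in these 3 regions. That is too few to show a difference between its classes, and the change of call rests on them too.

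With the liver cells above 10% in place of the whole livers, edgeR's quasi-likelihood test called 125 regions higher (0.698%) and 59 lower (0.33%) at an adjusted p of 0.05, with a smallest adjusted p of 0.00111. The cells had been chosen by regions high in the male liver on other chromosomes, and the other organs were left whole, so this test sets a class of liver cells against mixtures of cells.

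The regions with peaks in few libraries were not used by the score, but their peaks were called from the same cells, which in the male liver were mostly above 10%. Of 38315 regions with a peak in the male liver and none in kidney or spleen, 38.4% also had a peak in the female liver, 9.43% in colon, 9.004% in lung, 7.35% in heart and 1.89% in uterus. The female liver had the longest list, with a peak in 52.3% of all merged regions, against 35.1% for colon, 26.6% for lung, 21.98% for heart and 11.6% for uterus. Of 74583 regions with a peak in the female liver and none in those 4 organs, 23.0% had a peak in the male liver, 10.6% in kidney and 7.69% in spleen. Each of these shares was below that over all merged regions, which was 36.0% for the male liver, 34.3% for kidney and 28.4% for spleen. A peak in both livers and in no other organ was found in 9978 regions. In the female liver these regions held 8.64% (8.51% to 8.77%) of the counts of cells above 10% and 0.618% (0.601% to 0.635%) of those of cells below, a 14.0-fold difference. In the male liver they held 7.41% and 1.46%, a ratio of 5.07. That was the highest of the male liver classes given next, but near those of uterus alone (4.96) and of the male liver alone (4.57).

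The regions that the female liver shared with spleen alone showed the reverse. These 3751 regions held 0.147% of the counts above and 1.29% of those below 10%. Those shared with colon alone held 0.156% and 0.717%. Most other classes of the female liver were also lower above 10%, with ratios of 0.466 for heart alone, 0.333 for lung alone, 0.696 for uterus alone and 0.790 for the female liver alone. Regions shared with kidney alone were higher (1.36). In the male liver, the 5576 regions shared with kidney alone held 1.54% above and 0.422% below, a 3.65-fold difference that was not particular to kidney. Regions shared with colon, heart, lung or uterus alone were 2.79-fold to 4.96-fold higher above, regions of the male liver alone 4.57-fold, and only those shared with spleen alone were lower (0.0723% and 0.0921%). The plot of counts by peak sharing gives these classes.

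**Figure D4:**
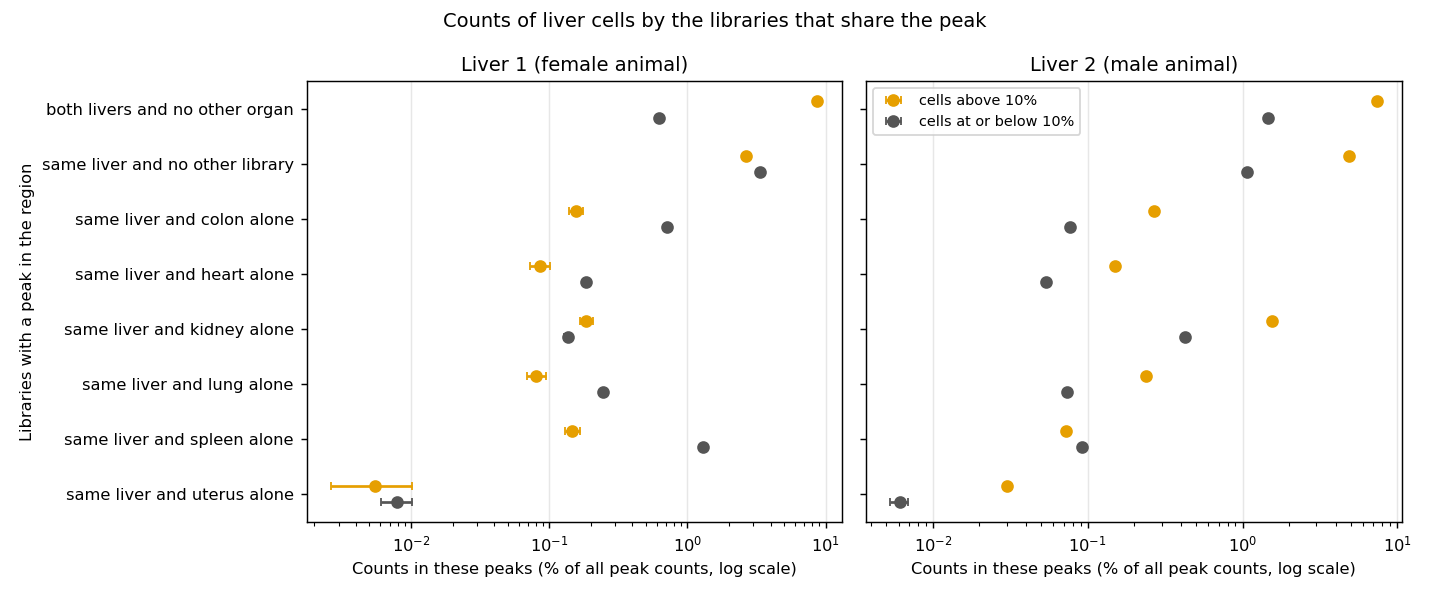
Percentage of all peak counts (log scale) of the liver cells above and at or below a 10% share that fell in regions with a peak in the named libraries and no other; points with exact binomial intervals, computed on pairs of counts and mostly smaller than the points. Regions with peaks in both livers alone hold 8.64% of the counts above and 0.618% below in the female liver, and 7.41% and 1.46% in the male liver.

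Among the regions with peaks in both livers alone, 3 with the most counts in the female liver cells above 10% were chosen after their values were seen. They were chr18:22612706-22623301, chr9:92401884-92410788 and chr9:130847932-130873287, the last tied with chr19:40361719-40373632. In the female liver they had 112, 101 and 77 counts in the cells above and 8, 0 and 3 in the cells below, although the cells below held more counts in all. The counts of the male liver broke the tie for the last region and did not otherwise rank them. Its peaks also helped to define the set, and most of its counts are in cells above 10%. The male liver had 280, 84.1 and 458 CPM of all peak counts above 10% and 10.9, 4.62 and 15.5 below, which is 25.7-fold, 18.2-fold and 29.6-fold higher. At the tied region on chromosome 19 it had 81.6 CPM above and 4.35 below, 18.8-fold higher.

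The calls were spread over all chromosomes. The share of tested regions high in both livers was between 0.483% on chromosome 19 and 2.29% on chromosome 12, with 0.679% on X, and that of low regions between 0.905% on X and 6.61% on chromosome 19. Chromosome 19, with 6 high and 82 low regions, had the lowest share of the former and the highest of the latter.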

How the data were processed

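Per the labels and methods, the authors processed each scATAC-seq library with Cell Ranger ATAC 1.2.0, called peaks per library, and deposited peak positions, barcodes and a count for each peak and barcode, which are cut ends, not normalized and mostly even. The genome build and aligner of the scATAC-seq data are not given in the sources used here. Total counts per library were between 2627231 and 110748462. Regions and barcodes were chosen as described above. The 8 libraries were grouped by organ and animal from the labels. Fits used edgeR 4.0.16 with TMM and, as an alternative, DESeq2 1.42.0 under R 4.3.3. Everything else used Python 3.11.15, numpy 2.4.6, pandas 2.3.3 and scipy 1.17.1. Poisson and binomial intervals are exact at 95% and cover counting error alone. Those of counts are on counts divided by 2, and those of shares of cells on the numbers of cells. No organ had a replicate within an animal, so adjusted p-values measure the spread between organs. No doublet caller was run; leaving out the 10% of barcodes with the most counts was an alternative.

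The members and rules were chosen with earlier results of these data known. The text names the 12 regions with the largest value of the smaller log2 ratio among those high in both contrasts with at least 20 counts in the female liver, the 8 most negative by the larger ratio among those low in both with a mean of at least 30 CPM, and the 4 with the largest opposite ratios. The 10% split, the comparisons within each liver, the restriction on peak lengths and the regions with peaks in the livers alone were added after seeing the data. The scripts were tested on simulated data. No gene annotation or sequence was used, and the marker lists set for cell types were not used either.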

Additional observations from a re-analysis of the deposited data

Results flagged for a closer look

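In 4 regions the livers differed from the other organs of their animals in opposite directions. The log2 ratio of the female liver was -2.66 at chr10:25914903-25919969, -2.51 at chr5:135968050-135969753 and -2.30 at chr18:59097895-59100592, where that of the male liver was 3.86, 2.70 and 3.61. At chr8:37573488-37574130, with 0 counts in the female liver, it was at most -1.05 at the upper end of the exact Poisson interval for a count of 0, against 2.61 in the male liver. Each animal gave 1 liver and other companion organs, so the difference between the animals was not tested. With the female liver cells above a 10% share alone, the female ratio was -0.66, -1.18 and -0.52 at the regions on chromosomes 10, 5 and 18. The whole female liver had 5, 4 and 6 counts in these regions.

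The barcodes of the female liver with fewer than 1000 counts were left out of all comparisons. These 1382 barcodes had 7.47% (7.36% to 7.59%) of their shared-region counts in the regions high in the male liver, against 6.07% in the cells kept, 5.49% in such barcodes of heart and 5.35% in those of uterus. In the regions with peaks in both livers alone they had 2.97% of their peak counts, against 2.10% in the cells kept.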

How the results depend on the processing

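No paired analysis was possible by replicate number, because the other organs carry the number 1 alone; the animal was a term in the edgeR test, and without that term edgeR called 0 regions too (685 higher and 843 lower at an unadjusted p under 0.05). The counts high and low in both contrasts (223 and 786) and their correlation (0.16) were recomputed under other settings, with a change of under 1.5 times taken as the same. The filter was applied anew under each setting, which changed the number of regions tested in some. Scaling to all peak counts gave 96 high of 15552 (0.617%). A pseudocount of 5 CPM gave 504 low. A mean of at least 30 CPM gave 129 high and 246 low of 11346 (1.14% and 2.17%). The high share was thus near the 1.25% of the main setting. Regions with 1 peak per library gave 63 and 403 of 11524 (0.547% and 3.50%). Counts per base gave 6 and 198 of 19957 and a correlation of 0.019. Peak lengths within 2-fold, added later, gave 2 and 68 of 6331. Counting cells with a count gave 137 high of 18924, and the mean of log2 CPM 379 high. A log2 ratio of 0.58 gave 664 and 1561, and one of 2 gave 14 and 154. The female liver cells above 10%, also added later and chosen by regions high in the male liver, gave 874, 1868 and 0.53. For the correlation, leaving out kidney turned it to -0.029, colon brought it to 0.095 and spleen to 0.31, so it ranged from -0.029 to 0.31 over the organs left out. The high count then ranged from 199 to 302 and the low count from 589 to 859. In the edgeR test, which gave 0 regions in every alternative fitted with edgeR on whole libraries, DESeq2 gave 162 higher and 236 lower, and the cells above 10% gave 125 and 59. The causes were not tested.

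For the named regions, 457 of the 480 ratios that a setting could move kept their direction and a 2-fold size, and 22 of the 23 others changed with counts per base. With counts per base, the female contrast of regions high in both livers turned to -0.11, -0.091, -1.18, -0.77, -0.35, -0.31, -0.45 and -1.12 (log2) at the chromosome 7 region, chr14:1744146-1754302, the chromosome 2 and 10 regions, chr13:5808763-5823449, and the chromosome 12, 16 and 11 regions. At chr13:5808763-5823449 the male contrast turned to -0.22. The depth of the female liver limits the regions low in both livers and those below about 10 CPM.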
